A study of Mus musculus with 6 samples.

Results

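A set of fibroblasts of the mouse aortic root and ascending aorta chosen by transcripts of Hhip, Dio2, Cpxm2 and 5 other genes, of which a cell had to hold any 4, was described in single-cell RNA sequencing data from 6 mice. Among 24972 cells that passed the quality limits, 13043 had at least 20 UMIs of Dcn (decorin, a matrix proteoglycan of fibroblasts) and under 5 of Myh11 (the smooth muscle myosin heavy chain) per 10000. A UMI, or unique molecular identifier, marks 1 captured transcript. These cells are called Dcn-positive cells here. Of them, 3104 were members, which means that they had a UMI of at least 4 of 8 genes (Hhip, F3, Pex5l, Dio2, Cpxm2, Hsd11b1, Cpz and Podn), of at most 3 of a list of 6 genes (Ly6a, Spon2, Ccl11, Tmem100, Ebf2 and Has1) and of at most 1 of a list of 5 genes (Pthlh, Cst6, Chad, Comp and Cilp2). The other 9939 Dcn-positive cells were the comparison. The 21 genes that chose the cells had been picked from these same data, so their levels describe the choice and are not results.

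The mice were 16 weeks old and female and were kept on a 129SVE background. By the labels, 4 were controls (CTL), of which 2 were Tgfbr1+/+; Wnt2CRE; EGFP-L10a and 2 were Tgfbr1+/+, and 2 were Loeys-Dietz syndrome (LDS) mice, Tgfbr1M318R/+. EGFP-L10a is a conditional tracer that a Cre driven by the Wnt2 promoter was used to switch on in cardiac neural crest. The labels name no treatment for either group. Barcodes end in 1 of 6 numbers, 1 for each library, which nothing read here ties to a mouse, so LDS and CTL mice were not compared, and each value below is given per library or as the median of 6 libraries. Because the libraries could not be assigned to a group, they are not replicates of 1 condition, no p-value was computed, and the spread between libraries is the error given.

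Hedgehog interacting protein, the product of Hhip, binds hedgehog ligands at the cell surface, and its gene is itself switched on by hedgehog signalling. Dio2 encodes the deiodinase that turns thyroxine into its active form, and Hsd11b1 encodes the enzyme that regenerates active glucocorticoid inside a cell. F3 encodes tissue factor, which starts coagulation and is plentiful in the outer coat of arteries, where it is kept away from blood. Fibroblasts of that coat, the adventitia, and of the root, where the valve leaflets attach, make collagens, proteoglycans and parts of elastic fibres.

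The promoters of Hhip and of 3 of the 15 genes with the largest ratio of members over other cells are shown first, since the GLI factors of hedgehog signalling and Gata4, the factor the study is about, act by binding such sequences. They run from 250 bases before to 50 after the annotated start, 5′ to 3′ along the gene, from RefSeq for GRCm38.p6, and capitals mark a match to a searched motif. For Colec11 (chr12:28623281-28623580, minus strand) and Fmod (chr1:134037004-134037303, plus strand) the capitals are AGATAA, the motif of GATA factors. For Egflam (chr15:7398341-7398640, minus strand) they are AGGTCA, the core site of nuclear receptors. The Hhip window (chr8:80057959-80058258, minus strand) held none of the motifs searched. The 3 were picked because they hold a match. Promoters were matched by the gene symbol used here only, so a gene listed under a newer symbol could be missed. Of the 10 genes among the 15 that had a promoter under that symbol, 7 held a match in at least 1 promoter. Svep1, Phex and Stc2 held none. Ano2 had 3 promoters, and Egflam, Fmo2 and Tnfsf13b had 2 each. The share of tested genes with a match to any of the motifs was not computed, so nothing is read from the 7 of 10.
Colec11: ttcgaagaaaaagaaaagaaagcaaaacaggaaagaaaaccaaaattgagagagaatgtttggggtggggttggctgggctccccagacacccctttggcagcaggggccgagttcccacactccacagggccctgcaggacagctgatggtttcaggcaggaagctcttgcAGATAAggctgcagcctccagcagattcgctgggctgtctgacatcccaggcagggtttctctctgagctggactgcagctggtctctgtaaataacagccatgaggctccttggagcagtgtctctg
Fmod: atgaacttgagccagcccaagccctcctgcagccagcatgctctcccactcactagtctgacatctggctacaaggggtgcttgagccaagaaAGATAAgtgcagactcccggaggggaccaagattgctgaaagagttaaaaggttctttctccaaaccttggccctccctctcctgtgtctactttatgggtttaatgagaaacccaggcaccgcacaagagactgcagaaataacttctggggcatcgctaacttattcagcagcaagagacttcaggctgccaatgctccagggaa
Egflam: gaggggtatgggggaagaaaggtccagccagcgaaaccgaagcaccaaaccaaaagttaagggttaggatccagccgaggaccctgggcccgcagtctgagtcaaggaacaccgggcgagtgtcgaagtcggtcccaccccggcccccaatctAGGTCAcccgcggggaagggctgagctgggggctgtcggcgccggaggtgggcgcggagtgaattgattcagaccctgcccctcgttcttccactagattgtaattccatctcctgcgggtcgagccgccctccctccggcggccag
Hhip: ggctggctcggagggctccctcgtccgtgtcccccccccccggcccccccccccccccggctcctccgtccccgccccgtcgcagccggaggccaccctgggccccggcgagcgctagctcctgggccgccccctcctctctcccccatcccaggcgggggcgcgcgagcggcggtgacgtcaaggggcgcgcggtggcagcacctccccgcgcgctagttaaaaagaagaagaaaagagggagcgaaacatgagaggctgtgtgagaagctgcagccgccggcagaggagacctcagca

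Of the 133 genes called higher in members below, 88 had a promoter under the symbol used here. AGATAA on either strand lay in 13.6% of these (12 genes), against 9.26% of the 162 lower genes with a promoter (15 genes). It lay in 7.05% of 6355 tested genes and 12.7% of all 27025 genes with a promoter. For AGGTCA the shares were 14.8%, 11.7%, 14.2% and 18.1% in the same order. GACCACCCA, the motif of the hedgehog factors GLI, was found in none of the higher or lower genes and in 0.330% of tested genes. AGGTGTGA, the T-box motif, was in none of either and in 0.803%. The glucocorticoid receptor palindrome was in none of either and in 0.0157%. At such low shares, 88 and 162 genes are too few to tell absence from rarity, so nothing is read from these. AGATAA was held by a larger share of the higher genes than of the tested ones, and this was so for the lower genes too. The share in the higher genes was near that of all genes. A gene with more promoters had more chances of a match, and whether these shares differ was not tested. No searched motif contains another, and these matches are letters in a window and not measured binding.

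After the quality limits, library totals ran from 18218282 to 38105145 UMIs. Members had a median of 5405 to 9335 UMIs, against 5304 to 9134 in the other Dcn-positive cells. In all, 1612 barcodes occurred in more than 1 library. Pairs among libraries 1, 3, 4 and 5 shared 638 to 1101 barcodes and libraries 2 and 6 shared 244, whereas the remaining pairs shared 2 to 8. After the quality limits no pair shared more than 13, and 3.03% of members and 3.35% of other cells had a barcode that was found in another library. Without these cells, 126 of the 133 genes called higher and 220 of the 229 called lower were called again. GFP transcripts numbered 157 to 263 UMIs in libraries 1 to 4 and 8 and 6 in libraries 5 and 6, although the labels give the tracer to 2 mice, and whether each library holds 1 mouse as labelled was not tested.

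Members were found in every library, but their share was not even. They were 32.6%, 16.9%, 27.7%, 21.1%, 17.6% and 37.7% of the Dcn-positive cells of libraries 1 to 6. Libraries 1 and 6 were high and libraries 2 and 5 low, with exact 95% binomial intervals, which cover counting error only, of 30.1 to 35.1% (library 1), 34.5 to 41.0% (library 6), 15.2 to 18.7% (library 2) and 16.0 to 19.4% (library 5). F3 had a UMI in 96.1% of members, Cpxm2 in 82.3%, Podn in 69.6%, Hsd11b1 in 67.2%, Dio2 in 63.8%, Hhip in 49.0%, Cpz in 45.3% and Pex5l in 39.0%. Hhip itself was thus not detected in most members at this depth, and in others it had a UMI in 8.07% of cells.

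The levels of 3 genes of the rule are given to describe the choice, and nothing is read from them. Hhip stood at 164, 96.2, 293, 336, 229.8 and 226 CPM in members of libraries 1 to 6. Dio2 stood at 394, 262, 297, 248, 277 and 251 CPM and Hsd11b1 at 418, 522, 316, 267, 444 and 492 CPM.

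Over genes that the choice did not use, members lay together. Each library's Dcn-positive cells were placed in 30 principal components computed without the 21 genes, and the 30 nearest cells of each member were read. Members made up 60.4%, 50.8%, 68.0%, 62.1%, 65.1% and 71.0% of these neighbours in libraries 1 to 6, against 29.6%, 11.3%, 16.5%, 12.7%, 8.12% and 24.1% of the neighbours of other cells. In each library the share around members was thus above the share around other cells and above the share of members among all Dcn-positive cells. The median was 63.6%, and 60.2% after each cell was thinned to 3000 UMIs. Library 1 had the closest pair of values and library 2 the lowest share around members. This is a description, since genes that vary with the 8 genes were kept.

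**Figure D1:**
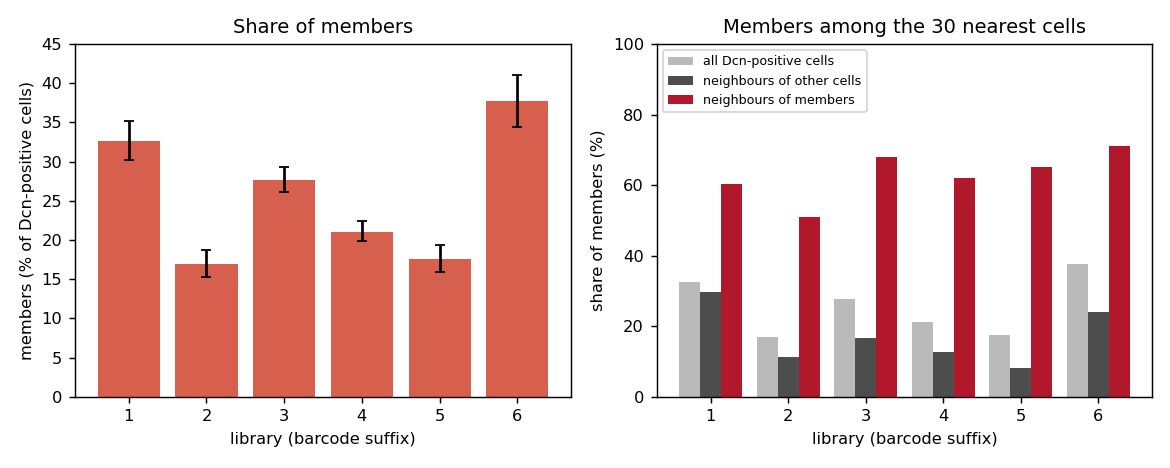
Left, members as a share of Dcn-positive cells (%) in each of the 6 libraries, with exact 95% binomial intervals, from 16.9% in library 2 to 37.7% in library 6. Right, share of members (%) among all Dcn-positive cells, among the 30 nearest cells of other cells and among the 30 nearest cells of members, in components computed without the 21 genes of the rule. The bar for neighbours of members is the highest in each library.

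Levels are given as UMIs of a gene per 1000000 UMIs (CPM), summed over the cells of a set within a library. A gene was called when its log2 ratio of members over others had 1 sign in all 6 libraries and a median of at least 1 in size. Of 8093 genes with at least 10 CPM, 133 were called higher, which is 1.64% of those tested, and 229 were called lower, which is 2.83%. With no limit on size, 985 genes (12.2%) were higher and 2074 (25.6%) lower in all 6 libraries, so lower was the more common direction, and the median ratio over all tested genes was -0.08. A sum over a set does not tell fewer transcripts per cell from fewer cells with the gene. Dcn, on which both sets were chosen, had a ratio of -0.08. The general fibroblast markers Lum, Pdgfra, Col1a1, Col1a2 and Serping1 were higher and Gsn was lower in all 6 libraries, so the name fibroblast did not go against these genes.

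The gene with the largest ratio outside the rule was Colec11. This soluble lectin of the innate immune system starts the lectin pathway of complement (ENSMUSG00000036655, chr12:28594173-28623377, minus strand, mm10). It stood at 46.2, 63.2, 32.2, 40.1, 82.1 and 138 CPM in members of libraries 1 to 6 and at 8.05, 8.06, 5.44, 5.03, 4.03 and 17.7 CPM in others. The groups did not overlap, and the median log2 ratio was 2.96, with library 5 the highest at 4.32. C2, a protease of the same cascade, stood at 25.0, 21.2, 81.5, 76.8, 185 and 145 CPM in members and at 13.9, 8.77, 12.0, 16.6, 18.4 and 19.5 CPM in others, for a ratio of 2.48. The members of libraries 1 and 2 were far lower in C2 than those of the other 4 libraries, but still above the others of every library.

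Egflam, which encodes pikachurin, a ligand of dystroglycan (chr15:7206120-7398395, minus strand), stood at 31.6, 38.3, 32.9, 35.6, 41.3 and 42.6 CPM in members and at 9.56, 8.34, 6.26, 8.02, 5.55 and 12.6 CPM in others. Its level varied little between libraries, the sets did not overlap and the median log2 ratio was 2.17. Tnfsf13b, the cytokine BAFF that keeps B cells alive, stood at 35.1, 34.3, 44.5, 36.7, 75.1 and 73.4 CPM in members against 7.71, 9.13, 10.2, 9.32, 10.1 and 15.8 CPM, with a ratio of 2.14. The chloride channel gene Ano2 had a ratio of 2.27. Wisp1, a matricellular protein of the CCN family, had a ratio of 2.21 and Lamc3, a laminin gamma chain of basement membranes, of 2.02. For Wisp1 and Lamc3, library 1 had the smallest ratio, 1.00 and 0.91, and in both the others of that library had the highest level among others.

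Fmod, the collagen-binding proteoglycan fibromodulin (chr1:134037254-134048277, plus strand), stood at 350.4, 235, 379.8, 381, 840.5 and 631 CPM in members and 145, 47.3, 118, 78.6, 122 and 204 CPM in others, for a ratio of 1.98. Members of libraries 5 and 6 were the highest. The flavin monooxygenase Fmo2 (1.91), the adhesion protein Svep1 (1.89) and the peptidase Phex (1.89), known for phosphate handling in bone, followed. Nkain4, a membrane partner of the sodium pump, Stc2, a secreted stanniocalcin, and Epha3, an ephrin receptor, had 1.74, 1.71 and 1.69. With Ntrk3, described next, these are the 15 genes with the largest ratios, and Epha3 was an exception in that the lowest member value, 44.1 CPM, fell within the range of others.

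Ntrk3 and the gene of its ligand, Ntf3, were both higher in members. Ntrk3, the receptor of neurotrophin-3, stood at 104, 78.0, 94.9, 99.2, 105 and 139 CPM in members and 41.6, 12.3, 22.7, 21.4, 15.8 and 33.1 CPM in others, with a ratio of 2.14. Ntf3, which encodes that ligand, stood at 158, 146, 166, 173, 213 and 229.7 CPM against 81.0, 48.8, 50.8, 46.6, 34.6 and 75.9 CPM, with a ratio of 1.65. Neither gene's sets overlapped between members and others. Gfra2, a receptor of the ligand neurturin, had a ratio of 1.51 and Ntrk2, the receptor of Bdnf, of 1.38, with 0.09 in library 2. Bdnf was lower instead, at -1.18. Gfra2, Ntrk2 and Bdnf were named after their values were seen.

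**Figure D2:**
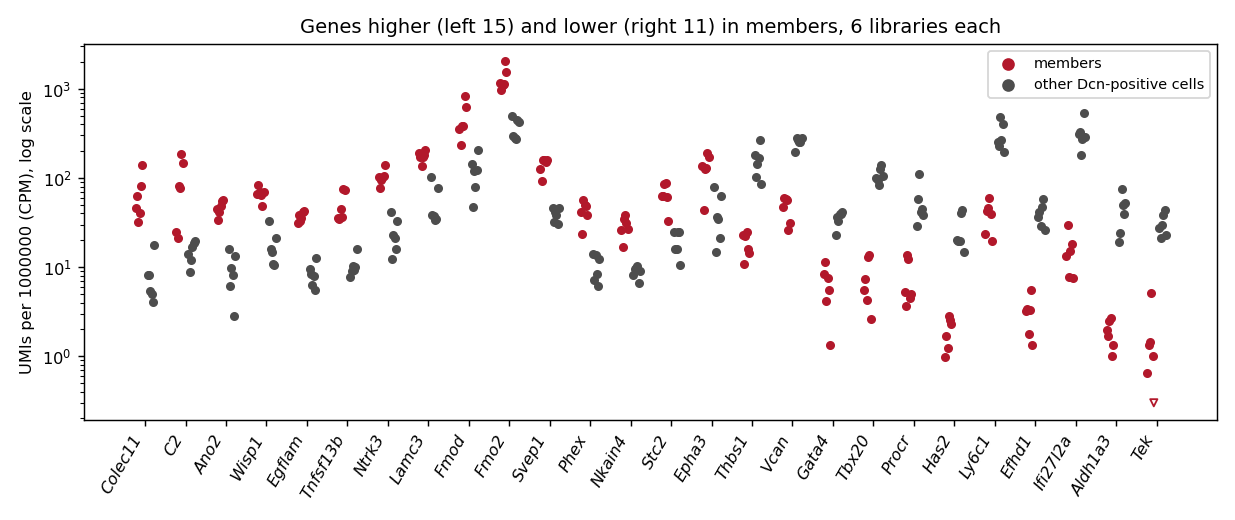
UMIs per 1000000 (CPM, log scale) of 26 genes, with 1 point for each of the 6 libraries in members and in other Dcn-positive cells. The 15 genes on the left are those with the largest median ratio, from Colec11 (2.96) to Epha3 (1.69), and the 11 on the right were picked among lower genes after their values were seen, down to Tek, where the open triangle marks a library with 0 UMIs in members.

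Among the genes lower in members, the transcription factor Tbx20 stood at 5.53, 7.40, 4.29, 13, 13.6 and 2.64 CPM in members and 98.8, 95.1, 83.6, 125, 139 and 105 CPM in others. The sets were far apart in each library, and the median log2 ratio was -3.90. Gata4, the cardiac factor the study is about (chr14:63198922-63271692, minus strand), stood at 8.46, 11.4, 4.11, 7.54, 5.54 and 1.32 CPM in members and 23.0, 36.9, 33.3, 39.1, 39.3 and 41.4 CPM in others, with a ratio of -2.59. A UMI of Gata4 was found in 3.48% of members and 17.2% of others. After thinning to 3000 UMIs, these shares were 1.84% and 8.88%.

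The 10 genes with the smallest ratios were Ttc9, Ucma, Cxcl14, Npy, Rtn1, Ifi205, Spp1, Tek, Aldh1a3 and Ifi27l2a. For Ttc9 members held 5 UMIs in all against 965 in others, for Ucma 8 against 1621, for Npy 29 against 1028, for Ifi205 25 against 1388 and for Cxcl14 56 against 2135. Members of at least 1 library held none of these, so their fitted ratios depend on the prior count and are not given. Spp1, which encodes osteopontin, had a ratio of -4.79, Rtn1, a reticulon of the endoplasmic reticulum, of -4.84 and Aldh1a3, which makes retinoic acid, of -4.55. Ifi27l2a, an interferon-inducible gene, had -4.55. Tek, the angiopoietin receptor, had 41 UMIs in members against 2095. Ifi205, Ly6c1 and other genes with near copies in the genome are uncertain, since reads of copies may have been split or dropped.

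Other Dcn-positive cells are a mixture, and a ratio against them depends on which cells they hold. Members were therefore also set against 1272 cells with at least 4 of the 6 genes of the Ly6a list and at most 3 of the 8 (the Ly6a-list cells) and against 1475 cells with at least 2 of the 5 genes of the Chad list (the Chad-list cells), of which 61 were in both. The Chad-list cells are near to members by construction, since 572 of the 602 cells that had at least 4 of the 8 genes but were left out exceeded the limit of the Chad list. Against Ly6a-list cells 411 genes (5.08%) were higher and 358 (4.42%) lower by the same rule, and against Chad-list cells 83 (1.03%) and 138 (1.71%). These comparisons share the members, so they are set side by side and not counted as separate evidence.

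Of the 133 higher genes, 124 were also called against Ly6a-list cells, 42 against Chad-list cells, 38 against both and 5 against neither. Colec11, C2, Tnfsf13b, Egflam, Ntrk3 and Gfra2 were called against both. Egflam stood at a median of 0.941 CPM in Ly6a-list cells and 6.54 in Chad-list cells, against 37.0 in members. Colec11 stood at 0.272 and 10.4 CPM, against 54.7. Fmod split the sets, at 1.12 CPM in Ly6a-list cells and 417 in Chad-list cells against 381 in members, so that members and Chad-list cells overlapped in it. Lamc3 was called against Ly6a-list cells only, with a ratio of 0.95 over Chad-list cells.

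Of the 229 lower genes, 155 were also called lower against Ly6a-list cells, 111 against Chad-list cells, 73 against both and 36 against neither. Tbx20 and Gata4 were in the group called against both, with ratios of -3.21 and -2.10 over Ly6a-list cells and -3.12 and -1.79 over Chad-list cells. Thbs1, which encodes thrombospondin 1, and Wif1, a secreted Wnt inhibitor, stood lower than in Chad-list cells, at -3.65 and -4.41, but were not called against Ly6a-list cells. Tcf21, a transcription factor of fibroblasts, was the reverse, at -1.95 over Ly6a-list cells and 0.09 over Chad-list cells. For 22 genes the ratio over Ly6a-list cells, and for 18 that over Chad-list cells, had the opposite sign.

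**Figure D3:**
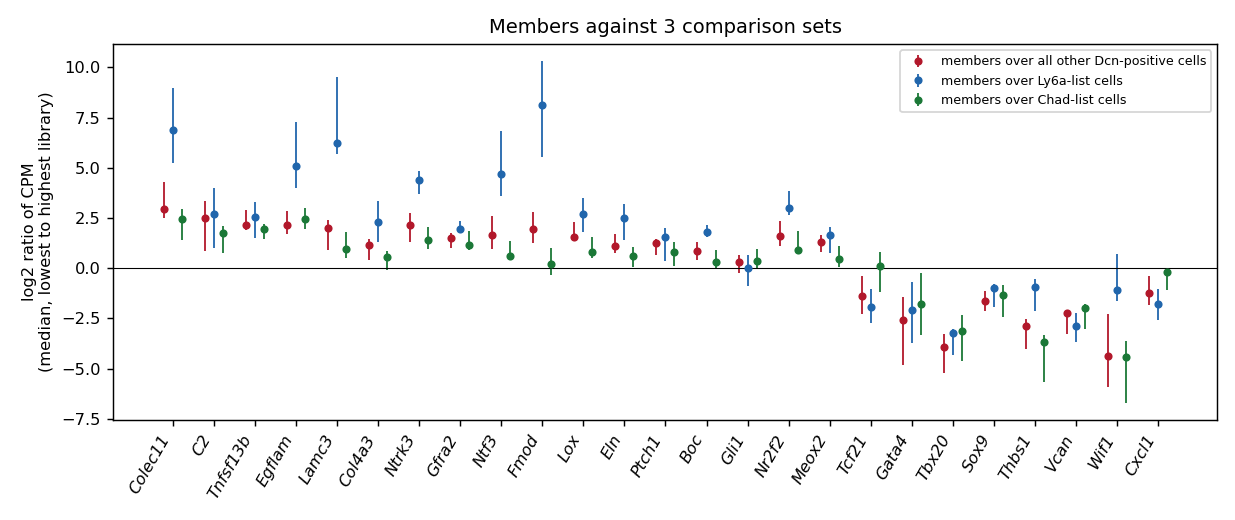
Log2 ratio of CPM of members over all other Dcn-positive cells, over Ly6a-list cells and over Chad-list cells for 25 genes, with the median as a point and the lowest to highest of 6 libraries as a bar. Tbx20 lies below 0 in all 3 comparisons, while Fmod is far above 0 against Ly6a-list cells and crosses 0 against Chad-list cells, and ratios of genes near 0 UMIs in Ly6a-list cells depend on the prior count.

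Whether the limit of 4 genes set a boundary was read from cells under both upper limits, by how many of the 8 genes had a UMI. Members had 4, 5, 6, 7 or 8 of them in 1067, 1002, 682, 290 and 63 cells. Just outside the limit were 1155 cells with 3. Colec11 stood at 2.32 CPM in cells with none of the 8 genes, 16.1 in cells with 3, 28.0 in cells with 4 and 122 in cells with 7 or 8. For Colec11, no step was seen at the limit.

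Tbx20 ran the other way, from 184 CPM in cells with none to 38.1 with 3, 12.4 with 4 and 1.22 with 7 or 8. On a log scale, its largest fall was the one at the limit. Fmod stood at 130 CPM with 3 and 250 with 4, Nr2f2 at 560 and 738, and Gata4 at 14.5 and 14.2. Cells just inside and just outside were thus close in Gata4 and differed by degree in the others. Cells with more of the genes also had more UMIs, from a median of 5131 with none to 7699 with 7 or 8. With the choice made on cells thinned to 3000 UMIs, 105 of the 133 higher and 213 of the 229 lower genes were called again.

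**Figure D4:**
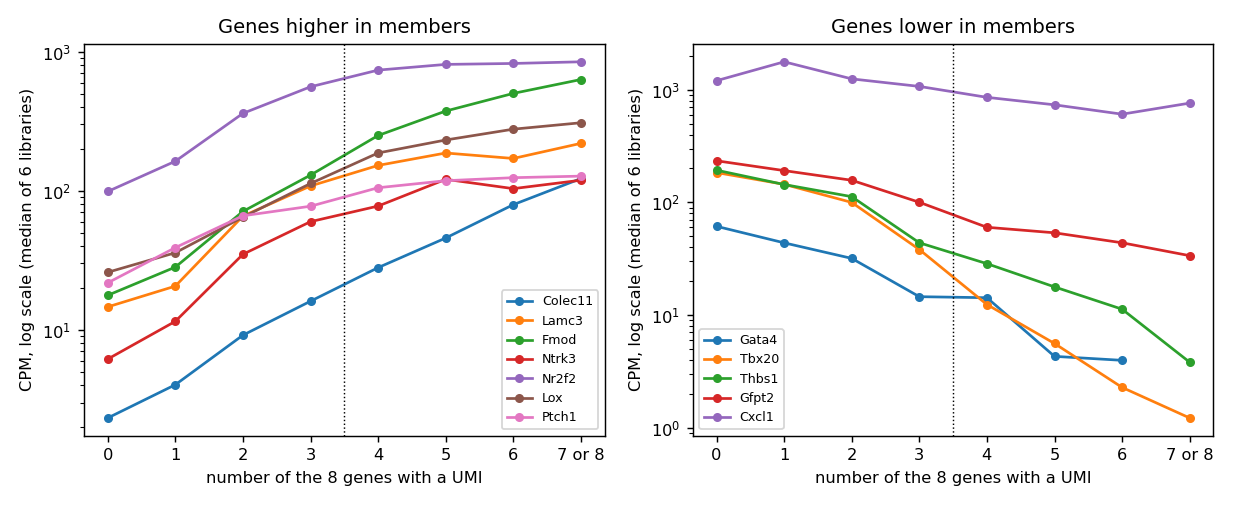
CPM (log scale, median of 6 libraries) of 7 genes higher and 5 lower in members, in cells under both upper limits grouped by the number of the 8 genes with a UMI. The dotted line is the limit of 4. Colec11 climbs from 2.32 to 122 CPM with no step at the line. Tbx20 falls from 184 to 1.22 CPM, and its largest fall on this scale, from 38.1 to 12.4, is at the line. Gata4 with 7 or 8 genes is at 0 and not drawn.

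The hedgehog pathway comprises ligands, the receptor Ptch1, the co-receptors Boc, Cdon and Gas1, the transducer Smo and the GLI factors, and Ptch1 and Gli1 are its usual target genes. Of 23 genes of the pathway, 8 were tested, and 1 was called higher and none lower, with a median of 0.26 beside -0.08 over all tested genes. The other 15 genes, which include the ligands Shh, Ihh and Dhh, were under the minimum of 10 CPM. Counts for this and the lists below stand beside 1.64% of all tested genes called higher and 2.83% called lower. The lists were chosen with earlier results of these data known. Ptch1 stood at 134, 129, 103, 105, 102 and 164 CPM in members and 85.2, 46.8, 40.8, 43.7, 44.4 and 79.6 CPM in others. The sets did not overlap, the median log2 ratio was 1.23, and it was 1.56 over Ly6a-list cells and 0.82 over Chad-list cells.

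Boc stood higher in members of all 6 libraries, with a ratio of 0.87 that missed the size limit. Gpc3, a glypican that binds hedgehog, stood at 0.51 in the same way. Gas1 was lower in all 6 libraries, at -0.26. Gli1 stood at 38.1, 27.6, 37.5, 38.1, 32.2 and 45.3 CPM in members and 45.3, 20.5, 25.9, 33.0, 34.3 and 28.2 CPM in others, with overlap and a ratio of 0.32. For Smo the ratio was 0.16 and for Cdon 0.20, neither with 1 sign in all 6 libraries.

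For the hormone enzymes in the name, other genes of the same pathways were read as well. None of 11 tested thyroid hormone genes was called, with a median of -0.03. The receptor gene Thrb had a ratio of 0.57 and Klf9, a target of that hormone, of 0.21, both with both signs among libraries. None of 14 tested genes of glucocorticoid action was called, with a median of -0.20, which was -0.059 against cells matched on the dissociation share described below and -0.047 without library 5. H6pd, which supplies the cofactor of the Hsd11b1 enzyme, stood at 19.5, 24.5, 27.9, 22.2, 35.8 and 39.0 CPM in members and 15.9, 12.8, 20.0, 13.6, 14.2 and 17.0 CPM in others, with a ratio of 0.82, higher in all 6 libraries. Tsc22d3, a gene that glucocorticoids induce, was at -0.59, lower in all 6 libraries.

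Of 14 tested genes of coagulation and fibrinolysis, 2 were called higher and 2 lower, with a median of -0.38. Serpinf1, a serpin that blocks vessel growth, had a ratio of 1.25 and Gas6, a ligand of TAM receptors, of 1.06. Procr, the receptor of protein C, and Serpine2, a serpin that blocks thrombin, were lower, at -2.96 and -1.84. Of 9 tested carboxypeptidases outside the rule, Cpxm1 (1.35) and Aebp1 (1.25), relatives of Cpxm2, were called higher and none lower, 7 of the 9 were higher in all 6 libraries, and the list's median was 0.34.

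Basement membrane genes were called higher in 7 of 23 tested and lower in 3, with a median of 0.47. The 7 were Lamc3, Egflam, Col4a3, Col4a4, Col4a6, Smoc1 and Smoc2. Col4a3, a chain of type IV collagen, stood at 137, 79.0, 67.9, 88.2, 80.1 and 75.7 CPM in members and 102, 28.9, 26.3, 40.4, 35.6 and 35.3 CPM in others. Library 1 had the highest level in both sets and the smallest ratio, 0.43, and the median was 1.15. Col4a4 and Col4a6 were at 1.14 and 1.10, and the calcium-binding Smoc1 was at 1.58. Lama4 and Lamc1, laminin chains, and Nid2, a nidogen, were lower, at -1.64, -1.01 and -1.10.

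Of 18 tested elastic fibre genes, 4 were called higher and 3 lower, with a median of 0.02. Eln, which encodes elastin, stood at 1695, 1179, 1457, 1418, 832 and 985 CPM in members and 999.9, 671, 484, 429.8, 329 and 522 CPM in others, with a ratio of 1.13. Member levels exceeded others within each library, while libraries differed so much that the sets overlapped. Lox, which cross-links elastin and collagen, had 1.54, Fbln5 1.03 and Mfap4 1.05. The lower genes were Loxl2 (-1.41), Emilin2 (-1.54) and Adamtsl4.

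Col1a2 was the fibrillar collagen called higher of 8 tested, at 1.10, and Col1a1 was at 0.96. Of 12 other collagens, Col6a6 was higher at 1.24, and Col8a1 (-2.06) and Col12a1 (-1.23) were lower. Of 21 proteoglycans and hyaluronan genes, Fmod was called higher and Epyc, Vcan, Prg4, Sdc3 and Has2 lower, with a median of 0.00. Vcan, the large proteoglycan versican, stood at 47.5, 59.5, 57.9, 56.4, 26.2 and 31.4 CPM in members and 198, 282, 264, 251, 255 and 283 CPM in others, with a ratio of -2.22. Has2, a hyaluronan synthase, was at -3.86. In both, the sets did not overlap.

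Of 21 tested matricellular genes, 4 were called higher and 5 lower, with a median of 0.17 that was -0.12 with a minimum of 2 CPM. The median was 0.42 over Ly6a-list cells but -0.33 over Chad-list cells. The CCN genes Wisp1 and Wisp2, with 1.14 for Wisp2, and Svep1 and Cdh11 were higher. Thbs1, Thbs2, Tnxb, Spp1 and Fn1 were lower, with -2.85 for Thbs1 and -2.28 for Fn1, which encodes fibronectin. Of 24 proteases and inhibitors, Mmp3 (1.16), Adamts2 (1.01) and Htra1 (1.16) were called higher and none lower, 13 were higher in all 6 libraries, and the median was 0.40. Mmp3, a stromelysin, stood at 467, 319, 845, 671, 1612 and 1292 CPM in members, with libraries 5 and 6 the highest, and at 187, 160.1, 547, 387, 305 and 448 CPM in others.

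Growth factor genes went both ways. Of 24 tested genes of FGF, PDGF and other growth factors, 4 were called higher and 7 lower, with a median of 0.28. Vegfd, a lymphatic growth factor, stood at 102, 166, 163, 158, 157 and 161 CPM in members and 33.5, 36.6, 74.0, 54.1, 54.2 and 44.4 CPM in others, without overlap, and its ratio was 1.57. Vegfa, the main endothelial growth factor, was lower, at -1.54. Ntf3, Angpt2 (1.13) and Pdgfrl (1.17) were the other higher genes, and Fgf2, Spry2, Angpt1, Kitl and Bdnf were among the other lower ones.

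Of 23 tested BMP genes, Gdf10 (1.54), Chrdl1 (1.28) and Bmp4 (1.26) were called higher and Bmp2 (-1.55) and Id4 (-1.10) lower, with a median of 0.00. Gdf10 is a ligand of the family, Chrdl1 a secreted antagonist and Id4 a target gene. Of 22 tested Wnt genes, Sfrp4, a secreted inhibitor, was called higher at 1.20, and Wnt2, Wnt11, Wnt16 and Wif1 lower, with -4.37 for Wif1 and a list median of -0.29. The direction of that median turned to 0.29 with a minimum of 50 CPM. The Wnt median was 0.51 over Ly6a-list cells and -0.15 over Chad-list cells, so the list was not lower against the former. Of 27 tested TGF-beta genes, Tgfbi was called higher (1.02) and Inhba, Tgif1 and Thbs1 lower, with a median of -0.02. Of 11 IGF genes, Htra1 alone was called, and the median was 0.10.

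Transcription factors known from regional patterning were called higher in 5 of 32 tested and lower in 4, with a median of 0.21. Nr2f2, which encodes COUP-TFII, a factor of veins and stroma, stood at 894, 479, 663, 657, 1290.4 and 1006 CPM in members and 409, 140.1, 225, 216, 254 and 355 CPM in others. The sets did not overlap, and the median log2 ratio was 1.58. Meox2, a homeobox gene, was at 1.31, and Hoxa3, Hoxb3 and the Notch target Hey2 were at 1.25, 1.16 and 1.23. Besides Gata4 and Tbx20, Tcf21 and Meox1 were lower. Tcf21 stood at 169.8, 427, 141, 170.1, 157 and 85.9 CPM in members and 340.0, 548, 277, 578, 614 and 419.7 CPM in others, with overlap through library 2, and a ratio of -1.38. Sox9, of the valve and tendon list, was at -1.63.

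Genes of adventitial fibroblasts that are shared between tissues were called higher in none of 21 tested and lower in 9, which is 42.9% beside 2.83% of all genes, with a median of -1.06. Ly6c1 stood at 23.7, 42.0, 46.1, 60.1, 39.3 and 19.8 CPM in members and 253, 229.6, 478, 269.5, 401 and 194 CPM in others, with a ratio of -3.32. None of the list's genes is a gene of the rule, and the part of the limit on the Ly6a list in these values was not tested. Sema3c (-1.51), Cd55 (-1.49) and Efhd1 (-3.72) were lower, whereas Dpt, a general fibroblast gene, was at 0.16, with 1 library below 0. Against cells under both upper limits with at most 1 of the 8 genes, the list's median was -0.77. It was -2.17 over Ly6a-list cells and -0.47 over Chad-list cells.

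Genes known from valve interstitial cells and tendon were called higher in 1 of 11 tested and lower in 7, with a median of -1.63. The 1 higher gene was Fmod. Clu, which encodes the chaperone clusterin, stood at 286, 138, 305, 250.1, 169 and 56.5 CPM in members and 795, 629, 1958, 1260.4, 639.9 and 372 CPM in others. The sets did not overlap and the ratio was -2.26. Wif1 was at -4.37 and Coch, a matrix protein also known from the inner ear, at -3.82, with a range of -8.65 to -0.51. Postn, or periostin, had both signs among libraries, and the median was 0.36. Against cells under both upper limits with at most 1 of the 8 genes, the list's median was -2.0. It was -1.34 over Chad-list cells but 0.04 over Ly6a-list cells, so the list was not lower against the latter. The part of the limit on the Chad list in these values was not tested.

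Of 18 tested chemokine and cytokine genes, Tnfsf13b was called higher and 6 were lower, with a median of -0.44. The list's median was -0.94 over Ly6a-list cells but 0.13 over Chad-list cells. Cxcl1, which attracts neutrophils, stood at 460.3, 219.6, 855, 919, 1434 and 618 CPM in members and 607, 628, 1625, 3234, 4266 and 916 CPM in others. Members were lower in each library, by -1.22 at the median, but the libraries differed so much that the sets overlapped. Ccl2, which attracts monocytes, was at -1.23. Cxcl12, a chemokine of stromal niches, was higher in all 6 libraries at 0.86, and Il6 was at -0.42 with both signs. Of 12 tested prostaglandin genes, 4 were lower, among them Ptgs2 (-1.21), which encodes cyclooxygenase-2, and Hpgd (-1.60), and none higher, with a median of -0.41. The prostaglandin median was -0.55 over Ly6a-list cells and -0.061 over Chad-list cells.

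Genes that respond to the dissociation of tissue ran lower in members as well. Their summed share of a cell's UMIs had a median of 1.63%, 1.5%, 1.92%, 1.92%, 2.28% and 1.76% in members of libraries 1 to 6, against 2.26%, 1.84%, 2.47%, 2.59%, 3.12% and 2.03% in others. It was lower in each library, and 14 of the 22 tested genes were lower in all 6 libraries, with 1 called and a median of -0.38. The part of this share in the lower chemokine and prostaglandin genes was not tested gene by gene, but against others matched to members on it, 206 of the 229 lower and 109 of the 133 higher genes were called again.

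Of 11 tested complement genes, C2 was called higher and Cd55 and Clu lower. All 11 kept 1 direction in all 6 libraries, 6 higher and 5 lower, among them Serping1, an inhibitor of the first steps of the cascade, at 0.86, and C3, its central component, at -0.52. The list's median of 0.17 turned to -0.18 with a minimum of 2 or of 50 CPM. Colec11 was not on this list. Of 26 tested genes of axon guidance and adhesion, Epha3, Slit3 (1.17), Sema3f (1.32) and Plxna4 (1.24) were called higher and 5 lower, including Sema3c and Cadm3 (-3.70), with a median of 0.04 that was -0.21 with a minimum of 2 CPM and -0.15 without library 4 or library 6.

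Of 16 tested genes of angiotensin, natriuretic peptides and related receptors, Ednra (1.07), the endothelin receptor of smooth muscle, and Gpr39 (1.11) were called higher and Npr1 (-1.02), the receptor of atrial natriuretic peptide, and Lepr (-1.12) lower. The list's median of 0.20 turned to -0.29 with a minimum of 50 CPM. Of 13 retinoid and steroid genes, Rbp4 (1.27), the carrier of retinol, was higher and Aldh1a3 lower, with a median of 0.00. Of 21 lipid and adipogenic genes, G0s2 (1.02) was higher and Fabp5, Apod, Angptl1 and Bmper lower, with a median of -0.25. That median was -0.34 over Ly6a-list cells but 0.12 over Chad-list cells. Neither of the 2 tested proliferation genes, Tyms and Pcna, was called.

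**Figure D5:**
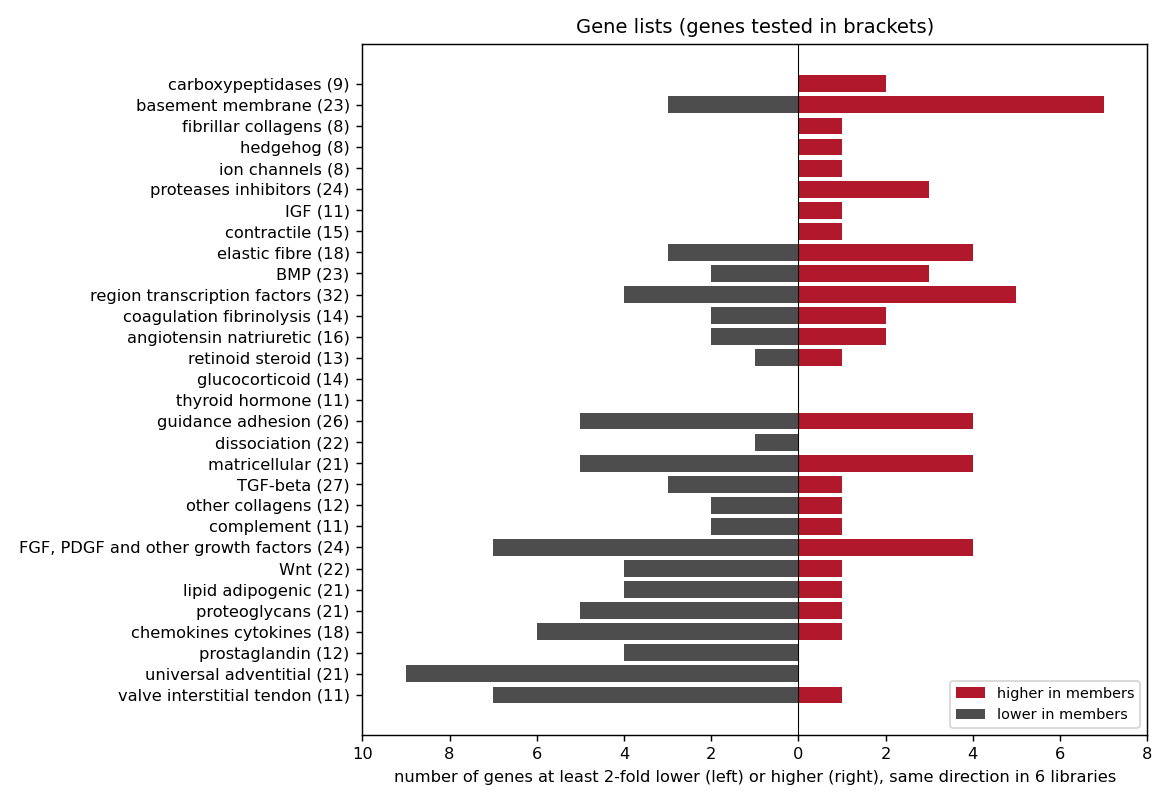
Number of genes of each list called higher (right) or lower (left) in members, with the number tested in brackets, for lists with at least 5 tested genes. Over all 8093 tested genes 1.64% were called higher and 2.83% lower. The basement membrane list has the most higher genes (7 of 23), and the list of adventitial genes shared between tissues has 9 lower and none higher.

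Among genes of ion channels, 8 were tested and Kcnj8 was called higher, at 1.13. It and Abcc9 (1.32), which together form a potassium channel of pericytes and smooth muscle, are on the pericyte list, and that list summed to 392 to 737 CPM in members against 148 to 325 in others. Cspg4 of that list was lower in all 6 libraries, at -0.96, Rgs5 was at 0.82 with both signs, and Higd1b was at 0 UMIs in members and at most 0.226 CPM in others. The smooth muscle list summed to 1322 to 2755 CPM in members and 975 to 2553 in others. Of 15 tested contractile genes, Lmod1 was called higher, at 1.06, none lower, and 8 were higher in all 6 libraries, with a median of 0.35. Their part in the results was not tested.

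Markers of other cell types were low. Leukocyte genes summed to 14.6 to 137 CPM in members and 51.1 to 350 in others, endothelial genes to 3.64 to 47.7 and 46.9 to 107, and glial genes to 19.1 to 45.9 and 61.6 to 102. Cd74, an antigen presentation gene, was called lower at -3.85 against all other Dcn-positive cells. It was at 0.20 over Ly6a-list cells and -0.14 over Chad-list cells, so it was not low against these sets. Mesothelial genes reached at most 0.661 CPM in members, with Msln, Upk3b, Lrrn4 and Upk1b at 0, and adipocyte genes at most 0.536 CPM, with Lep at 0. The fibroblast list summed to 39997 to 48448 CPM in members and 37544 to 50436 in others, so the ranges overlapped. Cells called doublets were 0 to 2.15% of members and 0.195 to 1.28% of others in 5 libraries. In library 5, where the caller marked 0.196% of cells, all cells at or above the score that cuts off the highest 5% were taken instead. With tied scores this marked 5.97% of the library's cells. Its shares of 3.72% of members and 4.60% of others follow from that limit. Without all marked cells, 132 of the 133 higher and 227 of the 229 lower genes were called again.

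GFP marks traced cells only where the tracer was present. In libraries 1 to 4, where GFP was found, a UMI of GFP was seen in 20 of 456, 8 of 313, 27 of 825 and 42 of 836 members, which is 4.39%, 2.56%, 3.27% and 5.02%. In others the shares were 3.50%, 2.02%, 1.34% and 2.04%. Members were higher in each of the 4 libraries, and the exact 95% intervals lay apart in library 3 (members 2.17 to 4.73%, others 0.902 to 1.92%) and in library 4 (members 3.64 to 6.73%, others 1.58 to 2.60%). They overlapped in libraries 1 and 2. These shares and intervals are from cells before thinning, and the separation in libraries 3 and 4 was lost after it, as given next.

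Over libraries 1 to 4 together, 3.99% of members (97 of 2430), 2.02% of others (157 of 7770) and 1.21% of leukocytes (3 of 248, interval 0.250 to 3.49%), taken as cells with a Ptprc UMI that were not Dcn-positive and should lack the tracer, held GFP. Their cells had medians of 6356, 6055.5 and 5372.5 UMIs in that order. Thinned to 3000 UMIs, the shares were 1.96%, 0.971% and 0.478%, and in library 2 members were below others, at 0.647% against 0.750%. In library 3 the exact intervals then overlapped, with members at 0.777 to 2.61% and others at 0.179 to 0.817%. They overlapped in library 4 too, with members at 1.54 to 3.84% and others at 0.874 to 1.74%, and in libraries 1 and 2. Over libraries 1 to 4 together they lay apart, at 1.44 to 2.61% for members and 0.755 to 1.23% for others. The interval for leukocytes reaches over the share of others, so the level that free RNA gives was not fixed at this depth. In libraries 5 and 6, 3 of 349 and 0 of 325 members had a GFP UMI, and 0 of 325 allows a share of up to 0.923% by the limit of 3 counts, while the exact 95% interval reaches 1.13%. The libraries with GFP were named from these counts and not from labels, and no lineage was given to any cell.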

How the data were processed

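Cells were dissociated from the aortic root and ascending aorta, and live nucleated cells were sorted and processed with the 10x Genomics 3' v3 chemistry. The authors deposited 1 matrix of raw UMI counts, made with Cell Ranger 6 on mm10 per the labels and joined over libraries, whereas another version stands in the matrix header. Whether the aggregation evened out depth between libraries is not given in the sources used here. The matrix holds 30716 barcodes and 31055 features, of which 31053 are mouse genes and 2 are added sequences, and 0 columns were of an unknown sample.

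The quality limits were those of the study's methods: above 1000 and below 5000 genes, above 1500 and below 25000 UMIs, and a mitochondrial share below 20%. UMIs were summed over members and over other Dcn-positive cells per library and scaled by the set's total (CPM), and 0.5 UMI, weighted by the totals, was added before the log2 ratio. A CPM median and a ratio median were taken separately. Genes needed 10 CPM on average over both sets, and the 21 genes of the rule were left out. Counts are for UMIs, and the intervals cover counting error only. On simulated counts with known folds for 200 genes, the script was tested before use. Doublets were marked by scrublet in scanpy 1.11.5 and removed in an alternative. Numbers were computed in Python 3.11.15 with scipy 1.17.1 and scikit-learn 1.9.0. Coordinates are from GENCODE for mm10, 1-based.

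The members and the gene lists were chosen with earlier results of these data known. Named genes were the genes of the rule, the top 15 called genes and the bottom 10 by ratio, every tested hedgehog gene, up to 4 genes of each other list (the 2 largest and 2 smallest ratios), Gata4 and GFP, and a few genes under this rule are not reported here. Genes named besides these, such as the called members of a list and the genes plotted, were chosen after their values were seen. Newer symbols of 5 genes were matched through RefSeq synonyms, Wisp1 being Ccn4. The libraries hold 1 matrix of all mice, with no samples assigned, and the alternatives are given at the close.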

Additional observations from a re-analysis of the deposited data

Results flagged for a closer look

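In each of 194 values, the highest and the lowest of the 6 libraries were compared with the rest by Dixon's ratio at the 95% level. The values were the log2 ratios of lists and named genes, the share of members among Dcn-positive cells and their share among neighbours of members. The ratio flags about 1 in 20 by chance, and 7 values were flagged, all of them log2 ratios. For the basement membrane list, library 1 had a median ratio of 0.21, while the other 5 libraries ran from 0.50 to 0.64. Library 1 was also apart in 2 single genes, with 1.01 for Gfra2 against 1.47 to 1.73 and 0.43 for Col4a3 against 1.10 to 1.45. Library 5 was the highest for Colec11, at 4.32 against 2.50 to 2.99, and for Tnfsf13b, at 2.88 against 1.90 to 2.20. Library 2 was the lowest for Dpt, at -0.49 against 0.09 to 0.25. Library 6 was the highest for Cnn1, a gene of contractile cells, at 0.86 against -0.41 to 0.02. No genotype is known for any of these libraries, and the causes were not tested.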

How the results depend on the processing

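The alternatives changed 1 choice at a time, except that the comparison with cells with at most 1 of the 8 genes also put these under both upper limits. No paired analysis was possible because the libraries could not be matched to mice, which bars LDS against CTL, while members and others were compared within each library. With a minimum of 50 CPM the genes called numbered 70 higher and 77 lower, and with 2 CPM 217 and 527, with fewer or more genes tested. Against cells under both upper limits with at most 1 of the 8 genes, 260 were higher. Leaving out 1 library gave 112 to 153 higher and 218 to 257 lower. Members were 15.7% of Dcn-positive cells with at least 5 of the 8 genes and 33.4% with at least 3, and 21.1 to 27.7% without 1 library. The share of members with GFP was 1.96% on thinned cells. The share of members among their neighbours ran from 62.1 to 65.1% without 1 library. Of 3059 values of named genes under alternatives, 92 moved by more than the spread and none turned, and of 588 list medians 64 moved and 3 turned, with cause not tested. Turned is said here only of called genes and of medians with 1 sign in all 6 libraries. Of the 588 list medians, 54 had another sign than the value reported. The minimum CPM does not enter a gene's own ratio, so no named gene could move at 50 or 2 CPM. Leaving out 1 library could not turn a called gene, since its ratio had 1 sign in all 6 libraries. Such values are among the 3059 all the same.

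List medians that moved or turned were as follows. At 50 CPM they were 0.69 for hedgehog, 0.29 for Wnt, 0.60 for growth factors, 0.55 for fibrillar collagens, 0.64 for basement membrane, 0.24 for proteoglycans, 0.56 for proteases, -0.18 for complement, 0.13 for retinoid and steroid genes, -0.29 for angiotensin and natriuretic genes, 0.70 for guidance and -0.056 for lipid genes. At 2 CPM they were 0.14 for growth factors, -0.17 for proteoglycans, -0.12 for matricellular genes, 0.49 for proteases, -2.54 for valve and tendon genes, -0.74 for chemokines, -0.18 for complement, -0.80 for prostaglandin, -0.17 for retinoid and steroid genes, 0.43 for angiotensin and natriuretic genes, -0.11 for ion channels and -0.21 for guidance. With 1 ratio of sums over libraries they were -0.0022 for Wnt, 0.16 for BMP, -2.16 for valve and tendon and -0.75 for chemokines. Against cells with at most 1 of the 8 genes they were 0.54 for hedgehog, 0.48 for carboxypeptidases, 0.29 for IGF, 0.40 for fibrillar collagens, 0.85 for basement membrane, 0.30 for matricellular, 0.55 for proteases, -0.77 for shared adventitial, -2.0 for valve and tendon, 0.35 for transcription factors, -0.088 for retinoid and steroid, 0.18 for guidance and -0.54 for dissociation genes. With the choice on thinned cells they were 0.23 for IGF, -1.82 for valve and tendon, 0.13 for transcription factors, 0.16 for retinoid and steroid, -0.095 for lipid, 0.11 for contractile and -0.27 for proliferation genes. Matched on the dissociation share they were -0.059 for glucocorticoid, 0.17 for retinoid and steroid and -0.16 for dissociation genes. Matching on UMIs gave 0.24 for IGF, and equal weight for each cell 0.10 for transcription factors. For retinoid and steroid genes a Dcn limit of 50 gave 0.14, at least 5 of 8 genes 0.10 and removal of shared barcodes 0.092, the last chosen after the data were seen, and for proteases at least 5 of 8 gave 0.32. Without 1 library, medians ran from -0.75 to -0.37 for chemokines, -0.29 to -0.047 for glucocorticoid, -0.15 to 0.25 for guidance, 0.038 to 0.30 for IGF, -0.12 to 0.16 for ion channels, -0.0020 to 0.15 for retinoid and steroid and -0.39 to -0.11 for Wnt genes.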
